A study of Mus musculus with 2 samples.

Results

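The genes described here encode the enzymes and transporters that build and sulfate the glycosaminoglycans chondroitin sulfate, dermatan sulfate and heparan sulfate. They were chosen by name, as the rows of the gene count table that match a list of 46 symbols, and all 46 were found among the 24421 rows. Of these genes, 13 serve both kinds of chain (6 build the linker to the core protein and 7 supply precursors), 16 belong to the chondroitin branch (6 for polymerization, 10 for modification) and 17 to the heparan branch (5 for polymerization, 10 for modification and 2 sulfatases).

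RNA-Seq data came from mouse primary chondrocytes (1 library) and primary dermal fibroblasts (1 library), within a study that searched for enhancers of *Sox9*. The chondrocytes came from rib cartilage of newborn mice, freed of soft tissue by a first collagenase digestion, released by a second one and used within 2 passages. The dermal fibroblasts, called fibroblasts in the following, came from dorsal skin of newborn mice and were released by collagenase. Strain, genotype, treatment and number of animals are not given in the sources used here, and the study did not treat sex as a variable. Depth was similar, with 18788599 counted reads for the chondrocyte library and 17563724 for the fibroblast library. With 1 library per cell type, no difference has a replicate check and no p-value is given.

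Glycosaminoglycans are long sugar chains attached to core proteins, and the resulting proteoglycans hold water in cartilage and bind growth factors at cell surfaces. A chain starts with xylose on a serine of the core protein and a short linker of further sugars. The next sugar decides the branch: N-acetylgalactosamine opens a chondroitin chain, and N-acetylglucosamine opens a heparan chain. Both chains are then extended in the Golgi and sulfated from the donor PAPS (phosphoadenosine phosphosulfate), which the cell makes from imported sulfate. Cartilage is rich in chondroitin sulfate, carried mainly by aggrecan, and inherited defects of sulfate uptake, PAPS synthesis or chain synthesis cause skeletal dysplasias.

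Folds are ratios of counts scaled by edgeR's TMM factors. They are given with a 95% Clopper-Pearson interval, except folds under other scalings or floors, which are given alone. Reads were counted without molecular identifiers and are not independent molecules, so the intervals cover counting error only. Folds used a floor of 3 counts in each library. A gene was called higher in 1 library when its fold was over 2, and genes were considered when they had a mean of at least 10 counts over both libraries. All 46 enzyme genes had values and met this minimum, as did 13825 genes in all. Over all genes considered, 10.9% were over 2-fold higher in chondrocytes and 15.3% in fibroblasts. In such bulk libraries, fewer cells of a type and less RNA per cell cannot be told apart.

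The labels were first checked against marker genes. *Col2a1*, the main collagen of cartilage, had 1447098 counts in chondrocytes against 0 in fibroblasts, a fold of 495432 with the floor of 3 counts and a lower interval limit of 402912. *Acan*, which encodes aggrecan, had 148105 counts against 35, and *Sox9*, the transcription factor that directs cartilage formation, had 5045 against 342 (15.2-fold higher, interval 13.6 to 17.0). All 15 chondrocyte markers found in the table were over 2-fold higher in chondrocytes, where they took 10.6% of all counts against 0.00346% in fibroblasts. *Col11a2* was the next most counted of them, with 106437 counts against 48. Of 9 markers of hypertrophic chondrocytes, 7 were also over 2-fold higher, with *Col10a1* at 10378 counts against 3, *Spp1* at 9639 against 3413 and *Mmp13* at 2276 against 296.

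In the fibroblast library, 10 of 12 fibroblast markers were over 2-fold higher, and the list took 5.34% of the counts against 0.810% in chondrocytes. *Col1a1* had 322379 counts there and 39143 in chondrocytes, *Col3a1* had 273385 against 32090, and *Col1a2* had 265777 against 34091. The chondrocyte library thus held appreciable counts of fibroblast collagens. *Dlk1* was the exception that was over 2-fold higher in chondrocytes (22110 counts against 5106).

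Markers of other cell types were found in both libraries. Of 15 skeletal muscle markers, 7 were over 2-fold higher in chondrocytes and none in fibroblasts, none was at 0, and the list took 0.230% of the counts against 0.172%. Its most counted genes were *Actc1* (7288 counts in chondrocytes against 7970), *Myh3* (7784 against 6497) and *Acta1* (6259 against 4705). Keratinocyte markers summed to 166 counts in chondrocytes against 5895 in fibroblasts, and 6 of 8 considered were over 2-fold higher in fibroblasts. They were led by *Krt14* (17 against 1939), *Krt5* (1 against 1693) and *Krt6a* (0 against 1189).

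Macrophage markers (3 of 9 over 2-fold higher in fibroblasts, 2248 counts in chondrocytes against 4086) were led by *Lyz2*, *Cd68* and *Mrc1*. Endothelial markers (7 of 8, 288 counts against 1015) were led by *Kdr*, *Cdh5* and *Pecam1*, and melanocyte markers (6 of 7, 200 against 1449) by *Mitf*, *Sox10* and *Dct*. None of these 3 lists had a gene over 2-fold higher in chondrocytes. Erythroid markers, led by *Alas2*, were nearly absent, with 11 counts against 3. Of 4 osteoblast markers considered, 3 were over 2-fold higher in chondrocytes, namely *Sp7* (156 counts against 13), *Dmp1* (48 against 1) and *Phex* (23 against 1), while the most counted, *Runx2*, had 1051 against 778. The part of these cell types in the enzyme values was not tested.

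Of the 46 enzyme genes, 14 (30.4%) were over 2-fold higher in chondrocytes, against 10.9% of all genes considered. The opposite call was made for 4 genes (8.70%), against 15.3% of all genes considered. The 46 genes were chosen with earlier results of these data known, so the comparison with all genes only describes the list. With the whole counting interval required to pass 2-fold, 13 genes were called for chondrocytes (28.3%, against 7.04% of all genes) and 3 for fibroblasts (6.52%, against 10.7%). The median log2 fold of the 46 genes was 0.26, and that of all genes considered was -0.0019, with quartiles of -0.54 and 0.42. Together the enzyme genes took 0.482% of all chondrocyte counts (interval 0.479 to 0.485) and 0.294% of the fibroblast counts (interval 0.292 to 0.297).

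Genes over 2-fold higher in chondrocytes made up 53.8% of the shared genes, 25% of the chondroitin genes and 17.6% of the heparan genes. The share over all genes considered was 10.9%. With the whole counting interval required to pass 2-fold, the shares were 53.8%, 18.8% and 17.6%, against 7.04% of all genes considered. Genes over 2-fold higher in fibroblasts made up 6.25% of the chondroitin genes and 17.6% of the heparan genes, against 15.3% of all genes considered. Differences between these groups of genes were not tested. Of the 13 genes of the shared steps, 7 were over 2-fold higher in chondrocytes and none in fibroblasts, with a median log2 fold of 1.10. Of the 16 chondroitin genes, 4 were higher and 1 was lower (median 0.34), and of the 17 heparan genes, 3 were higher and 3 were lower (median -0.17). The largest fold of all, however, was that of a heparan gene, *Extl1*.

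**Figure D1:**
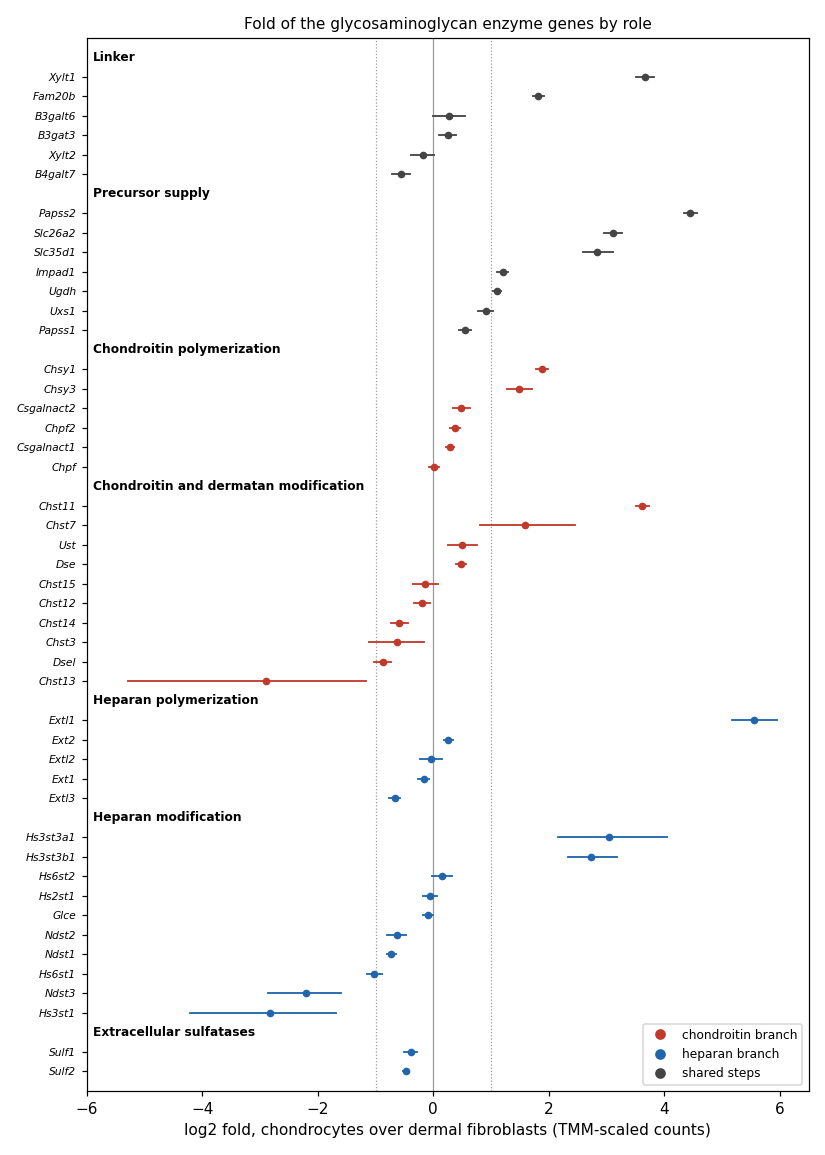
Log2 fold of scaled counts in chondrocytes over fibroblasts for each of the 46 genes, grouped by role. Points are folds, bars are 95% counting intervals and dotted lines mark 2-fold; 14 points lie to the right of the upper line and 4 to the left of the lower one.

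The linker is made by 6 enzymes. Chain synthesis begins with the xylosyltransferases, which put xylose on the core protein. *Xylt1* (chr7:117380979-117667630 in GRCm38) had 4335 counts in chondrocytes against 352 in fibroblasts and was 12.6-fold higher in chondrocytes (interval 11.3 to 14.1). Its paralog *Xylt2* had 399 counts against 465, a fold of 0.881 (interval 0.769 to 1.01). Of these paralogs, *Xylt1* was past 2-fold and *Xylt2* was not.

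*Fam20b* encodes the kinase that phosphorylates the linker xylose, a step that promotes linker completion. It had 4072 counts in chondrocytes against 1188 and was 3.52-fold higher (interval 3.30 to 3.76). The 3 enzymes that add the remaining linker sugars lay within 2-fold. *B4galt7*, which adds the first galactose, had 540 counts against 814 and was 1.47-fold higher in fibroblasts (interval 1.31 to 1.64); its exons overlap those of *Gm15911* on the opposite strand by 110 bp. *B3galt6*, for the second galactose, had 231 against 196, and *B3gat3*, for the closing glucuronic acid, had 790 against 682. *Xylt1* alone made up 41.8% of the linker counts in chondrocytes and 9.52% in fibroblasts.

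Precursor supply held the largest share of genes higher in chondrocytes, with 5 of 7 over 2-fold and none lower (median log2 fold 1.2). Over all genes considered, these shares were 10.9% and 15.3%. These 7 genes took 0.169% of all chondrocyte counts and 0.0429% of the fibroblast counts. They fall into a sulfate arm (*Slc26a2*, *Papss1*, *Papss2* and *Impad1*) and a nucleotide sugar arm (*Ugdh*, *Uxs1* and *Slc35d1*).

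In the sulfate arm, *Slc26a2*, the sulfate transporter of the cell membrane, had 2999 counts in chondrocytes against 356 in fibroblasts and was 8.65-fold higher in chondrocytes (interval 7.75 to 9.68). *Papss2* (chr19:32595669-32667187) encodes a PAPS synthase, which turns sulfate into the donor of all sulfotransferases. It had 15526 counts against 727, which made it 21.9-fold higher (interval 20.4 to 23.7). It was the most counted of the 46 genes in chondrocytes, where it made up 17.1% of their counts, against 1.41% in fibroblasts. The other PAPS synthase, *Papss1*, lay within 2-fold at 1957 counts against 1370 (1.47-fold, interval 1.37 to 1.57). *Impad1* (named *Bpnt2* in RefSeq) encodes the Golgi phosphatase that clears the product left after sulfate transfer. It had 2949 counts against 1318, or 2.30-fold more (interval 2.15 to 2.45).

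In the nucleotide sugar arm, *Ugdh*, which oxidizes UDP-glucose to UDP-glucuronic acid, had 6173 counts in chondrocytes against 2952 and was 2.15-fold higher (interval 2.06 to 2.24). This call was lost with scaling by total counts, where the fold was 1.95. *Uxs1*, which converts UDP-glucuronic acid to UDP-xylose, was just inside the threshold at 1.87-fold (1243 counts against 681, interval 1.71 to 2.06), and with scaling by *Actb* it was over it at 2.04-fold. *Slc35d1* encodes a transporter that carries UDP-glucuronic acid and UDP-N-acetylgalactosamine into the endoplasmic reticulum. It had 965 counts against 138, which made it 7.18-fold higher (interval 6.0 to 8.65). All 7 precursor genes thus had more scaled counts in chondrocytes, by 1.47-fold to 21.9-fold.

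Chondroitin polymerization is the work of 6 genes, with a median log2 fold of 0.43. Of these, 2 were over 2-fold higher in chondrocytes and none was lower, against 10.9% and 15.3% of all genes considered. The initiating enzymes, which add the first N-acetylgalactosamine, lay within 2-fold. *Csgalnact1* had 3351 counts in chondrocytes against 2810 (1.22-fold, interval 1.16 to 1.29), and *Csgalnact2* had 952 against 698 (1.40-fold, interval 1.27 to 1.55). The difference lay in the chondroitin synthases, which carry both sugar transfer activities. *Chsy1* had 3606 counts against 1008, which made it 3.67-fold higher (interval 3.43 to 3.94). *Chsy3* had 630 against 230, which made it 2.81-fold higher (interval 2.42 to 3.29).

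The polymerizing factors that work together with these synthases lay within 2-fold. *Chpf* had 2077 counts against 2111 (1.01-fold, interval 0.951 to 1.07) and *Chpf2* had 2361 against 1862 (1.30-fold, interval 1.23 to 1.38). Some of these counts are uncertain because of overlapping exons in the annotation used. Exons of *Chpf2* overlap those of *Smarcd3* on the opposite strand by 2466 bp. Exons of *Chsy1* overlap those of *Gm17504* on the opposite strand by 2037 bp, and exons of *Chpf* overlap those of *Obsl1* on the same strand by 62 bp. Whether the counting used the strand is not given in the sources used here. *Smarcd3* had 516 counts in chondrocytes against 409 in fibroblasts, and *Obsl1* had 2907 against 1599.

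Chondroitin and dermatan chains are modified by 10 genes, with a median log2 fold of -0.17. Of these, 2 were over 2-fold higher in chondrocytes and 1 in fibroblasts, against 10.9% and 15.3% of all genes considered. *Chst11* (chr10:82984440-83195904) encodes a 4-O-sulfotransferase, which sulfates N-acetylgalactosamine at carbon 4. It had 7903 counts in chondrocytes against 659 in fibroblasts and was 12.3-fold higher in chondrocytes (interval 11.4 to 13.4). It made up 59.1% of the counts of this role in chondrocytes and 10.3% in fibroblasts. The other genes for the same position behaved differently. *Chst12* had 837 counts against 985 (0.873-fold, interval 0.795 to 0.958), and *Chst13* had 3 counts against 23, a level 7.46-fold higher in fibroblasts with a wide interval (2.26 to 38.8). With a floor of 10 counts the fold of chondrocytes over fibroblasts was 0.447 for *Chst13*, against 0.134 with the floor of 3.

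The 6-O-sulfotransferases act at carbon 6 of the same sugar and had few counts. *Chst3* had 63 counts in chondrocytes against 100 in fibroblasts, a fold of 0.647 (interval 0.464 to 0.896). *Chst7* had 53 against 18 and was 3.02-fold higher in chondrocytes, with an interval from 1.74 to 5.49 that reached below 2. *Chst15*, which adds a second sulfate to 4-O-sulfated N-acetylgalactosamine, had 327 against 369, and *Ust*, which sulfates the uronic acid, had 311 against 225. Neither of the last pair was past 2-fold.

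Dermatan sulfate is made from chondroitin by epimerases that turn glucuronic acid into iduronic acid. *Dse* had 2704 counts in chondrocytes against 1986 in fibroblasts (1.40-fold, interval 1.32 to 1.48). *Dsel* went the other way, with 572 against 1078, and was 1.83-fold higher in fibroblasts (interval 1.66 to 2.03). With scaling by total counts *Dsel* was past the threshold at 2.02-fold. *Chst14*, the dermatan 4-O-sulfotransferase, had 604 counts against 932 and was 1.5-fold higher in fibroblasts (interval 1.35 to 1.67). None of the 3 dermatan genes was over 2-fold different with the TMM scaling.

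Heparan polymerization comprised 5 genes, with a median log2 fold of -0.04. Of these, 1 was over 2-fold higher in chondrocytes and none in fibroblasts, against 10.9% and 15.3% of all genes considered. *Extl3*, which adds the N-acetylglucosamine that commits a chain to heparan, had 1519 counts in chondrocytes against 2475 and was 1.59-fold higher in fibroblasts (interval 1.49 to 1.69). *Ext1* and *Ext2* encode the partners of the heparan polymerase. They had 1495 against 1726 counts (0.890-fold, interval 0.830 to 0.954) and 2734 against 2339 counts (1.2-fold, interval 1.14 to 1.27). *Extl2*, which can end a chain at the linker, had 430 against 454. The main polymerase genes thus lay within 2-fold.

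*Extl1* stood out among all 46 genes. It encodes a glycosyltransferase of the exostosin family that can transfer N-acetylglucosamine to a growing heparan chain, and it lies on chromosome 4 (chr4:134356373-134372547). It had 2552 counts in chondrocytes against 56 in fibroblasts and was 46.8-fold higher in chondrocytes (interval 35.9 to 62.1). It made up 29.2% of the counts of heparan polymerization genes in chondrocytes and 0.794% in fibroblasts.

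Heparan modification comprised 10 genes, with a median log2 fold of -0.36. Of these, 2 were over 2-fold higher in chondrocytes and 3 in fibroblasts, against 10.9% and 15.3% of all genes considered. The first step replaces the acetyl group of N-acetylglucosamine with sulfate. *Ndst1* had 1977 counts in chondrocytes against 3355 in fibroblasts and was 1.65-fold higher in fibroblasts (interval 1.56 to 1.75). *Ndst2* had 513 against 818, a 1.55-fold difference in the same direction (interval 1.39 to 1.74). *Ndst3* had 27 against 128 and was 4.62-fold higher in fibroblasts (interval 3.03 to 7.27). A further gene of this family outside the 46, *Ndst4*, had 3 counts against 0 and was not considered.

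The epimerase gene *Glce* (1896 counts against 2070) and the uronic acid 2-O-sulfotransferase gene *Hs2st1* (1200 against 1282) were close to equal, at 0.941-fold (interval 0.883 to 1.0) and 0.961-fold (interval 0.888 to 1.04). Of the 6-O-sulfotransferases, *Hs6st1* had 734 counts against 1532 and was 2.03-fold higher in fibroblasts (interval 1.86 to 2.22). It fell inside the threshold with scaling by the upper quartile (1.99-fold), by totals without the 10 most abundant genes (1.97-fold) and by *Actb* (1.87-fold). *Hs6st2* had 573 against 527 (1.12-fold, interval 0.990 to 1.26).

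The 3-O-sulfotransferases add the rarest sulfate of heparan chains. *Hs3st3a1* had 96 counts in chondrocytes against 12 in fibroblasts and was 8.22-fold higher in chondrocytes (interval 4.49 to 16.5). *Hs3st3b1* had 358 against 55, which made it 6.69-fold higher (interval 5.02 to 9.05). *Hs3st1*, whose product is known for making the antithrombin binding site, had 7 against 51 and was 7.09-fold higher in fibroblasts (interval 3.21 to 18.5). The members of this family thus differed in opposite directions. *Hs3st3a1* and *Hs3st3b1* both lie on chromosome 11, and 8.82% of the 75-base runs in *Hs3st3a1* transcripts also occur in *Hs3st3b1*, so their counts are uncertain where reads fall in those runs. Exons of *Hs3st3a1* also overlap those of *F930015N05Rik* on the opposite strand by 479 bp.

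The sulfatases *Sulf1* and *Sulf2* remove 6-O-sulfate from heparan chains outside the cell. *Sulf2* had 4981 counts in chondrocytes against 7121 in fibroblasts (1.39-fold higher in fibroblasts, interval 1.34 to 1.44), and *Sulf1* had 990 against 1336 (1.31-fold, interval 1.21 to 1.43). *Sulf2* was the most counted of the 46 genes in fibroblasts, with 13.8% of their counts against 5.50% in chondrocytes. Its exons overlap those of *Ncoa3* on the opposite strand by 154 bp.

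The chondroitin branch was then set against the heparan branch. The median log2 fold was 0.34 for the chondroitin genes and -0.17 for the heparan genes, a difference of 0.51. This difference does not depend on the scaling, because a change of scaling shifts both medians alike. It was 0.42 without *Sulf1* and *Sulf2*, and 0.55 without *Chst14*, *Dse* and *Dsel*. The branches were not uniform. In the chondroitin branch the median was 0.43 for the 6 polymerization genes but -0.17 for the 10 modification genes, as for the whole heparan branch. In the heparan branch it was -0.04 for polymerization, -0.36 for modification and -0.44 for the sulfatases. No test was made over genes, which are not replicates of a cell type.

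In summed reads, chondroitin genes took 0.140% of all chondrocyte counts (interval 0.139 to 0.142) and 0.0859% of the fibroblast counts (interval 0.0846 to 0.0873). Heparan genes took 0.118% (interval 0.116 to 0.119) and 0.144% (interval 0.142 to 0.146). The ratio of chondroitin to heparan reads was therefore 1.19 in chondrocytes (interval 1.17 to 1.22) and 0.596 in fibroblasts (interval 0.584 to 0.608). Without *Chst11*, left out after its counts were seen, the ratios were 0.836 and 0.570. Without *Sulf1* and *Sulf2*, left out in the same way, they were 1.64 and 0.894. In each of these cases the ratio was larger in chondrocytes.

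The shared steps differed most in summed reads, with 0.224% of the chondrocyte counts (interval 0.222 to 0.227) and 0.0640% of the fibroblast counts (interval 0.0628 to 0.0652). *Papss2* was the largest contributor in chondrocytes, and *Ugdh* was in fibroblasts. Without *Papss2* the shares were 0.142% and 0.0599%.

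Levels of different genes were compared as scaled CPM (counts per 1000000 of the scaled library total) per kilobase of exon. Among 12775 genes with a length, *Papss2* ranked 168 in chondrocytes at 238.3 and 4490 in fibroblasts at 10.9. By exon length, *Chst11* followed among the 46 genes in chondrocytes at 79.8 and *Xylt1* at 63.3, against 6.48 and 5.0 in fibroblasts. In fibroblasts the highest per-length level of the 46 genes was that of *Sulf2* at 66.5, followed by *Csgalnact1* at 32.0 and *Papss1* at 28.6. In chondrocytes these genes were at 47.8, 39.2 and 42.0. The places below the first depend on the length used. By the longest protein-coding transcript, *Papss2* and *Sulf2* kept first place, but *Ugdh* came next in both libraries (135.2 in chondrocytes, 63.0 in fibroblasts), followed by *Chst11* in chondrocytes (79.8) and *Ext2* in fibroblasts (44.3). At the bottom of the range, *Chst13*, *Hs3st1* and *Ndst3* were the lowest in chondrocytes, at 0.101, 0.175 and 0.244.

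**Figure D2:**
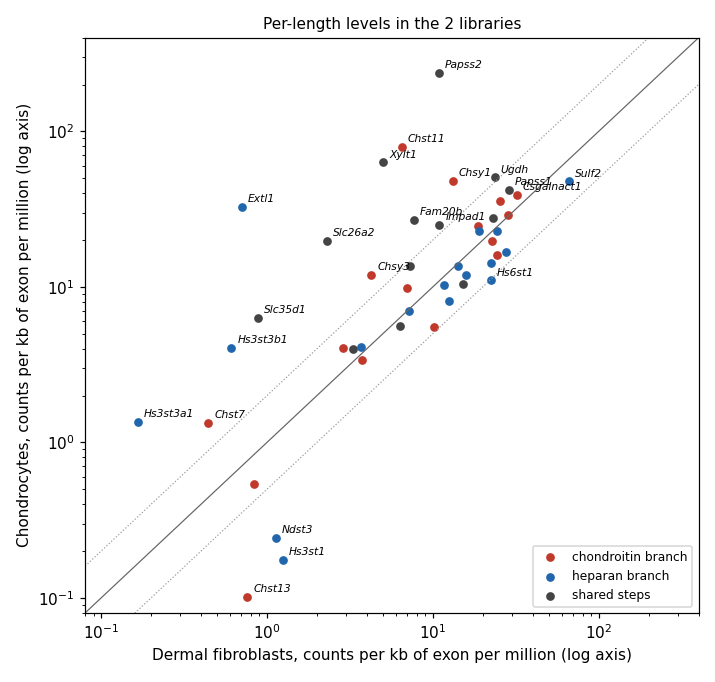
Per-length level of each of the 46 genes (TMM-scaled CPM per kilobase of exon) in fibroblasts (horizontal, log axis) and chondrocytes (vertical, log axis), colored by branch. The solid line marks equal levels and the dotted lines 2-fold; *Papss2* is the highest point, at 238.3 in chondrocytes and 10.9 in fibroblasts.

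For several steps with alternative enzymes, the balance between paralogs differed between the libraries. *Papss2* was at 5.67 times the per-length level of *Papss1* in chondrocytes and at 0.379 times in fibroblasts, a ratio of ratios of 15.0 (interval 13.5 to 16.5). *Xylt1* stood at 11.3 times *Xylt2* in chondrocytes and at 0.788 times in fibroblasts (ratio of ratios 14.4, interval 12.1 to 17.1). *Chst11* stood at 4.04 times *Chst12* and at 0.286 times (ratio of ratios 14.1, interval 12.5 to 15.9). In these 3 pairs the predominant paralog was a different gene in each library, and the ratio of ratios needs neither a scaling factor nor a gene length.

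The predominant gene was the same in both libraries for the following pairs. *Dse* exceeded *Dsel* 6.44 times in chondrocytes and 2.51 times in fibroblasts (ratio of ratios 2.57, interval 2.28 to 2.88). *Hs6st1* exceeded *Hs6st2* by 2.69 times in chondrocytes and 6.10 times in fibroblasts, or 1.5 and 3.40 times by the longest transcript (ratio of ratios 0.441, interval 0.380 to 0.511). *Chsy1* stood at 4.04 times *Chsy3* in chondrocytes and 3.09 times in fibroblasts, and *Csgalnact1* at 4.01 and 4.59 times *Csgalnact2*. *Ndst1* was at 2.06 and 2.2 times *Ndst2*, and the interval of its ratio of ratios (0.830 to 1.06) included equality, as did that of *Sulf1* to *Sulf2* (0.968 to 1.16). *Ext1* was at 0.452 times *Ext2* in chondrocytes and 0.610 times in fibroblasts, or 0.205 and 0.276 times by the longest transcript.

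The balance of sulfation positions on chondroitin was read from summed per-length levels. The 4-O-sulfotransferase genes *Chst11*, *Chst12* and *Chst13* summed to 99.6 in chondrocytes and 29.9 in fibroblasts, and the 6-O-sulfotransferase genes *Chst3* and *Chst7* to 1.88 and 1.28. The 4-O set was thus 53.0 times the 6-O set in chondrocytes (interval 44.1 to 64.2) and 23.4 times in fibroblasts (interval 19.4 to 28.4). The 4-O sum was led by *Chst11* in chondrocytes and by *Chst12* in fibroblasts. Only *Chst11* was higher in chondrocytes (79.8 against 6.48). *Chst12* (19.8 against 22.7) and *Chst13* (0.101 against 0.757) were lower there, so the larger 4-O sum in chondrocytes rests on *Chst11*. Within the 6-O set, *Chst3* was at 0.404 times *Chst7* in chondrocytes and at 1.89 times in fibroblasts (ratio of ratios 0.214, interval 0.115 to 0.398). These are transcript levels, and sulfation itself was not measured.

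Other genes of the pathway gave the following picture. Of 14 further synthesis and transport genes, 9 could be considered (median log2 fold 0.07). Of these, 2 were over 2-fold higher in chondrocytes and 1 in fibroblasts, against 10.9% and 15.3% of all genes considered. *Ugp2*, which makes UDP-glucose, had 2931 counts in chondrocytes against 1484 and was 2.03-fold higher (interval 1.91 to 2.16), but 1.85-fold with scaling by total counts and just under 2-fold with DESeq2 size factors. *Slc35b2*, the main Golgi transporter of PAPS, lay within 2-fold at 1496 against 887 (1.73-fold, interval 1.59 to 1.88), and the nucleotide sugar transporter gene *Slc35b4* had 1010 against 1589. *Slc26a1*, another sulfate transporter, had 40 against 12 (3.42-fold, interval 1.76 to 7.17). *Hs3st5*, with 0 counts against 23, was 7.46-fold lower in chondrocytes with the floor of 3 counts, with a lower interval limit of 5.60.

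The hexosamine pathway supplies the amino sugars of the chains. Of its 6 genes, 3 were over 2-fold higher in chondrocytes and none in fibroblasts, against 10.9% and 15.3% of all genes considered. The median log2 fold was 0.93. *Gfpt1*, for the entry step, had 5116 counts in chondrocytes against 2372 and was 2.22-fold higher (interval 2.11 to 2.33). *Gfpt2* had 1887 against 968 and sat at the threshold (2.0-fold, interval 1.85 to 2.17), with 1.82-fold by total counts and 1.97-fold by DESeq2 size factors. *Uap1* had 1075 against 1211.

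Glycosaminoglycans are broken down mainly in lysosomes. Of 17 lysosomal and related genes, none was over 2-fold higher in chondrocytes, 6 were in fibroblasts, against 15.3% of all genes considered, and 11 lay within 2-fold (median log2 fold -0.67). The list took 0.0734% of all chondrocyte counts and 0.163% of the fibroblast counts. *Hexa*, for a subunit of beta-hexosaminidase, had 2172 counts against 6877 and was 3.08-fold higher in fibroblasts (interval 2.94 to 3.24), and the beta-glucuronidase gene *Gusb* lay within 2-fold at 1324 against 1613.

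Keratan sulfate is a further chain of cartilage with its own enzymes. Of 5 genes considered, 1 was over 2-fold higher in chondrocytes and 2 in fibroblasts, against 10.9% and 15.3% of all genes considered. *B4galt1*, a galactosyltransferase that also serves other glycans, had 1762 counts against 4561, *Chst2* had 615 against 559 and *B4galt4* had 131 against 180. *B3gnt7*, the gene higher in chondrocytes, had 43 counts against 6 (7.36-fold, interval 3.12 to 21.2).

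Core proteins carry the chains. Over all genes considered, 10.9% were over 2-fold higher in chondrocytes and 15.3% in fibroblasts. Of 7 chondroitin or dermatan sulfate core protein genes, 4 were over 2-fold higher in chondrocytes and 3 in fibroblasts. *Acan* was 4346-fold higher in chondrocytes (interval 3125 to 6240) and *Col9a2* 4262-fold (41496 counts against 10, interval 2317 to 8888), while *Bgn* was 2.04-fold higher in fibroblasts (50802 against 106591, interval 2.02 to 2.06). The *Bgn* call was lost with scaling by the upper quartile (just under 2-fold), by totals without the 10 most abundant genes (1.98-fold) and by *Actb* (1.88-fold). Also called for fibroblasts were *Dcn* (3.43-fold, interval 3.33 to 3.54) and *Vcan* (2.13-fold, interval 2.07 to 2.19). *Vcan* was at 1.95-fold with scaling by *Actb*, while the *Dcn* call held under each scaling. Of 12 heparan sulfate core protein genes, 4 were over 2-fold higher in chondrocytes and 1 in fibroblasts (median log2 fold 0.56). *Hspg2*, which encodes perlecan, had 49320 counts against 23490 (2.16-fold, interval 2.12 to 2.19, under 2-fold with scaling by total counts), whereas *Sdc2* (4842 against 4567) and *Agrn* (4540 against 4006) lay within 2-fold. The largest fold of these 12 genes was that of *Sdc4*, with 6003 counts against 951 (6.48-fold, interval 6.05 to 6.95).

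The enzyme genes were also set beside other genes of the Golgi. The match is partial, since *Slc26a2*, *Slc35d1*, *Sulf1* and *Sulf2*, for example, act elsewhere. All these lists were chosen with earlier results of these data known. Over all genes considered, 10.9% were over 2-fold higher in chondrocytes and 15.3% in fibroblasts. Of 21 genes for other Golgi glycosylation, none was over 2-fold higher in chondrocytes, and the opposite call was made for 2 (median log2 fold -0.17). Their most counted genes were *Galnt2* (4258 counts against 6478), *Man2a2* (2261 against 3322) and *Man2a1* (1404 against 3486). Of 21 genes for Golgi structure and transport, 1 was over 2-fold higher in chondrocytes and none in fibroblasts (median 0.15), with *Copa* at 10132 against 10418, *Arf1* at 7495 against 8204 and *Tmed2* at 6557 against 5912. Of 10 housekeeping genes, 1 was over 2-fold higher in chondrocytes and 1 in fibroblasts (median 0.12), and the most counted were *Actb*, *Rplp0* and *Gapdh*.

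RefSeq promoter entries (GRCm38.p6) were found for 37 of the 46 genes, and not for *Chsy3*, *Csgalnact1*, *Ext1*, *Extl3*, *Impad1*, *Ndst1*, *Slc26a2*, *Sulf1* and *Xylt1*. The 250 bases before each start were searched on both strands for the letters ACAAAG and ACAATG, which are cores bound by SOX proteins, for the GC box letters GGGCGG and for the TATA box letters TATAAA. No motif is contained in another, though matches of different motifs can share bases. Of 32851 promoters in all, 16.5% held ACAAAG, 10.7% held ACAATG, 32.7% held GGGCGG and 12.4% held TATAAA. These promoters were not limited to the genes considered, whereas all 46 enzyme genes met the minimum count, so the sets are unlike. The 37 genes had 46 entries, of which 1 held ACAAAG, 1 held ACAATG, 29 held GGGCGG and 2 held TATAAA. Of the 11 entries of genes over 2-fold higher in chondrocytes, none held either SOX core or TATAAA, and 9 held GGGCGG. The median GC content of these windows was 65.6% for the 11 entries, 64.2% for the 46 and 52.4% for all promoters. A match is a description of letters and not of binding, and a missing match says nothing about a factor acting elsewhere.

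The sequences before the starts of *Extl1* and *Papss2*, the genes with the largest folds, are shown as far as they lie outside the gene. Their GC content over the 250 bases was 53.2% for *Extl1* and 67.6% for the first start of *Papss2*. A second *Papss2* start, not printed, was at 43.2% and held no searched motif. Capitals mark GGGCGG on either strand. *Extl1* is on the minus strand (chr4:134372548-134372797) and held no searched motif. The first start of *Papss2* is on the plus strand (chr19:32595465-32595668) and held GGGCGG 2 times, of which 1 lies in the stretch shown.
Extl1: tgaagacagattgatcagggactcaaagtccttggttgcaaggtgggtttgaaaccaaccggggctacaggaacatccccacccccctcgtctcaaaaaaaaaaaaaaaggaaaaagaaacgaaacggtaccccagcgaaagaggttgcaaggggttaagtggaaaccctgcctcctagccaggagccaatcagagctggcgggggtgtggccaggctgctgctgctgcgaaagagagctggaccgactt
Papss2: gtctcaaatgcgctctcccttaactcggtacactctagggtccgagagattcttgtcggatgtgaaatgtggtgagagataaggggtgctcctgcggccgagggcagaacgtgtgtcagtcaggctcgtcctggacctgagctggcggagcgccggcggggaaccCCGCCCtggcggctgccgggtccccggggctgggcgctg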

How the data were processed

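RNA-Seq was performed on 1 chondrocyte and 1 dermal fibroblast library (TruSeq stranded mRNA). Per the submitters' processing notes and the paper's methods, the authors used CASAVA 1.8.2, TopHat2 2.0.13, Bowtie2 2.2.3 and SAMtools 0.1.19 with the mm10 build, and deposited unscaled counts, as whole numbers, for each gene symbol. The counting program, its annotation and its strand setting are not given in the sources used here.

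From the deposited counts, TMM factors were computed with edgeR 4.0.16 in R 4.3.3 (0.954 for chondrocytes, 1.05 for dermal fibroblasts). Folds, Clopper-Pearson intervals and medians were calculated in Python (version 3.11.15) using pandas 2.3.3, numpy 2.4.6 and scipy 1.17.1, and matplotlib 3.10.9 drew the figures. The interval of a ratio of ratios is a normal approximation on the log scale. Gene lengths and exon overlaps came from GENCODE vM1 (NCBIM37), which named 92.4% of the genes considered, and positions from RefSeq GRCm38.p6, where 46 genes matched (*Impad1* by synonym). No position was converted between builds.

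The alternatives were 5 other scalings (total counts, DESeq2 1.42.0 size factors, upper quartile, totals that leave out the 10 top genes of each library, and *Actb*), a floor of 1 or of 10 counts, 1 count added to each value, other minimum counts, a 4-fold threshold, the whole interval past 2-fold, smaller gene lists and the longest protein-coding transcript as the length. The calculations were tested on simulated counts. All 46 enzyme genes were accounted for, and of each other list up to 3 of the genes with the most counts were named, with *Sox9*, *Col2a1*, *Acan*, *Col1a1* and *Krt14* as label checks. Further genes (*Dlk1*, *Ndst4*, *Sp7*, *Dmp1*, *Phex*, *Slc26a1*, *Hs3st5*, *B3gnt7*, *Dcn*, *Vcan*, *Sdc4*) were named after their values were seen. The enzyme genes and lists were chosen with earlier results of these data known.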

Additional observations from a re-analysis of the deposited data

How the results depend on the processing

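Relative to TMM, scaling by total counts shifted every log2 fold by -0.14 and scaling by *Actb* by 0.12; the other 3 scalings shifted it by -0.02 to 0.05. With total counts the median log2 fold was 0.12 over all 46 genes, 0.20 for the chondroitin branch and -0.30 for the heparan branch. With *Actb* it was 0.38 over all 46 genes, 0.46 for the chondroitin branch and -0.0463 for the heparan branch. All 3 medians kept their sign under each scaling, floor, pseudocount and list tried, and the difference between the branches ranged from 0.42 to 0.57.

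Calls in favor of chondrocytes numbered 14, ranged from 10 to 15 under the alternatives with a 2-fold threshold, and came to 8 with a 4-fold threshold. Calls in favor of dermal fibroblasts numbered 4, ranged from 3 to 5 under the scalings, and came to 1 with a mean of at least 100 counts, since *Chst13*, *Hs3st1* and *Ndst3* then leave. Under the 8 scalings, floors and pseudocount, 16 of the 18 called genes stayed past 2-fold, and none changed sign.

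In the other lists, calls near 2-fold moved with the scaling. Skeletal muscle markers over 2-fold higher in chondrocytes numbered 5 to 8, hexosamine genes 2 or 3, further synthesis genes 1 or 2, and heparan sulfate core proteins 3 or 4. Chondroitin sulfate core proteins called for dermal fibroblasts numbered 1 to 3. Keratan sulfate genes, genes for other Golgi glycosylation and heparan sulfate core proteins called for dermal fibroblasts each numbered 1 or 2. The median changed sign with the scaling for heparan polymerization (-0.18 to 0.08), further synthesis genes (-0.07 to 0.19) and housekeeping genes (-0.01 to 0.25), and these medians are close to 0.

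The following alternatives were chosen after seeing the data. Without the 8 genes whose exons overlap another gene or share 75-base runs with one, the heparan median was -0.28. The ratio of chondroitin to heparan reads, 1.19 in chondrocytes and 0.596 in dermal fibroblasts, was 0.836 and 0.570 without *Chst11*, and 1.64 and 0.894 without *Sulf1* and *Sulf2*. The shared steps took 0.142% and 0.0599% of the reads without *Papss2*. These changes follow from the genes left out. With the longest protein-coding transcript as the length, the predominant gene of each pair stayed the same, but the ratios within *Hs6st1* and *Hs6st2*, *Ext1* and *Ext2*, *Sulf1* and *Sulf2*, *Csgalnact1* and *Csgalnact2*, and *Chpf* and *Chpf2* moved.

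Depth limited the genes under 100 counts in both libraries on average (*Chst3*, *Chst7*, *Chst13*, *Hs3st1*, *Hs3st3a1* and *Ndst3*), whose intervals were wide. The intervals do not cover variation between animals or cultures.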
